A study of Arabidopsis thaliana with 12 samples.

Results

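YAB3 (AT4G00180), YAB5 (AT2G26580) and PHV (AT1G30490) are transcription factor genes that set up the difference between the upper and the lower side of leaves and floral organs. They were chosen by name, and each was measured by 1 probe set of an Affymetrix ATH1 array, giving 3 probe sets of the 22746 that are no controls. All 3 passed the filter on low signals, being above a signal of 16.4 on all 12 arrays. The filter used the signal alone and no detection call, so passing it does not show that a transcript was present. The 12 samples of Arabidopsis thaliana fell into 4 groups of 3: mature rosette leaves (growth stage 3.90) and flowers (stage 6.90) of wild-type plants, and the same tissues at the same stages of plants with the lug-3 allele. All plants were in the Landsberg erecta (Ler-0) background, so wild type and mutant share the erecta allele of that ecotype. Each sample was RNA from a pool of 20 plants grown at 20 °C in constant light. For all 12 samples the labels also give 4 days of cold at 4 °C. According to the labels, lug-3 flowers have sepals with carpel or stamen character, petals that are staminoid or missing, fewer stamens and unfused carpels, and lug-3 plants have narrower leaves. A flower sample of the mutant therefore holds other proportions of organs than a wild-type one, and in such bulk samples fewer cells of a type and less RNA per cell cannot be told apart. Nothing in the labels says that the 3 pools of a group were grown separately, so the spread among them may be technical. The p-values of the main fit rest on this spread within groups, taken over all 4 groups together.

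YABBY proteins such as YAB3 and YAB5 carry a zinc finger and a DNA-binding YABBY domain, are produced on the lower (abaxial) side of young lateral organs and promote abaxial identity and blade outgrowth. YAB3 acts redundantly with its close relative FIL. PHV belongs to the class III homeodomain leucine zipper (HD-ZIP III) family, which promotes upper (adaxial) identity and is kept from the abaxial side by the microRNAs miR165 and miR166. The lug-3 allele lies in LEUNIG (LUG), whose product is a transcriptional corepressor. It works with the adaptor SEUSS, binds YABBY proteins in lateral organs, and also represses the floral identity gene AGAMOUS. Target genes of LEUNIG are the stated subject of the study. LUG has no probe set named here, so the LUG transcript gives no check of the labels.

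The tissue labels could be checked with markers, which matters because the extraction text of the flower samples speaks of rosette leaves. All 4 named photosynthesis markers were lower in wild-type flowers than in wild-type leaves, with summed signals of 5219 to 6341 against 13057 to 15884. The summed signal of the 4 named pollen markers was 483 to 642 in wild-type flowers and 65.5 to 80.6 in wild-type leaves. That of the 4 named tapetum markers was 1337 to 2064 in wild-type flowers and 11.8 to 22.8 in wild-type leaves. The 12 floral organ identity markers on the list have no probe set named here. The median signal of an array was 38.3 to 41.0 in leaves and 48.8 to 52.5 in flowers. YAB3 in wild-type leaves (35.6 to 45.7) and YAB5 in lug-3 flowers (25.0 to 40.6) lay near or below these medians. The GAPDH control probe sets gave an index of RNA quality, the signal at the 3' end over that at the 5' end. This GAPDH ratio ran from 1.47 to 3.44 over the 12 arrays. Its highest values were 3.44 on wild-type leaves 3, 3.10 on lug-3 flowers 3 and 2.83 on wild-type leaves 2. The same ratio for the actin control probe sets ran from 1.82 to 5.37. It was highest on the same arrays, at 5.37, 5.11 and 5.09 in that order.

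The signal of the 3 genes in every sample is the base of what follows. YAB3 had signals of 35.6, 38.3 and 45.7 on the 3 wild-type leaf arrays and of 58.0, 53.9 and 46.3 on the lug-3 leaf arrays. In wild-type flowers YAB3 had 42.1, 57.4 and 69.0, and in lug-3 flowers 52.0, 66.8 and 46.2. The wild-type leaf arrays were thus the lowest group for YAB3, with every array below every lug-3 leaf array, while the other groups overlapped one another.

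YAB5 had signals of 49.4, 61.2 and 78.0 in wild-type leaves and of 67.1, 83.2 and 69.7 in lug-3 leaves. In wild-type flowers YAB5 had 54.9, 55.6 and 63.0, and in lug-3 flowers 34.5, 25.0 and 40.6. The 3 lug-3 flower arrays lay below all 9 others. Wild-type leaves overlapped both lug-3 leaves and wild-type flowers, while every lug-3 leaf array was above every wild-type flower array.

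PHV had signals of 56.4, 39.2 and 86.2 in wild-type leaves and of 44.6, 41.5 and 44.9 in lug-3 leaves. In wild-type flowers PHV had 103, 114 and 101, and in lug-3 flowers 144, 112 and 148. Every flower array was above every leaf array for PHV, and within each tissue the genotypes overlapped.

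**Figure D1:**
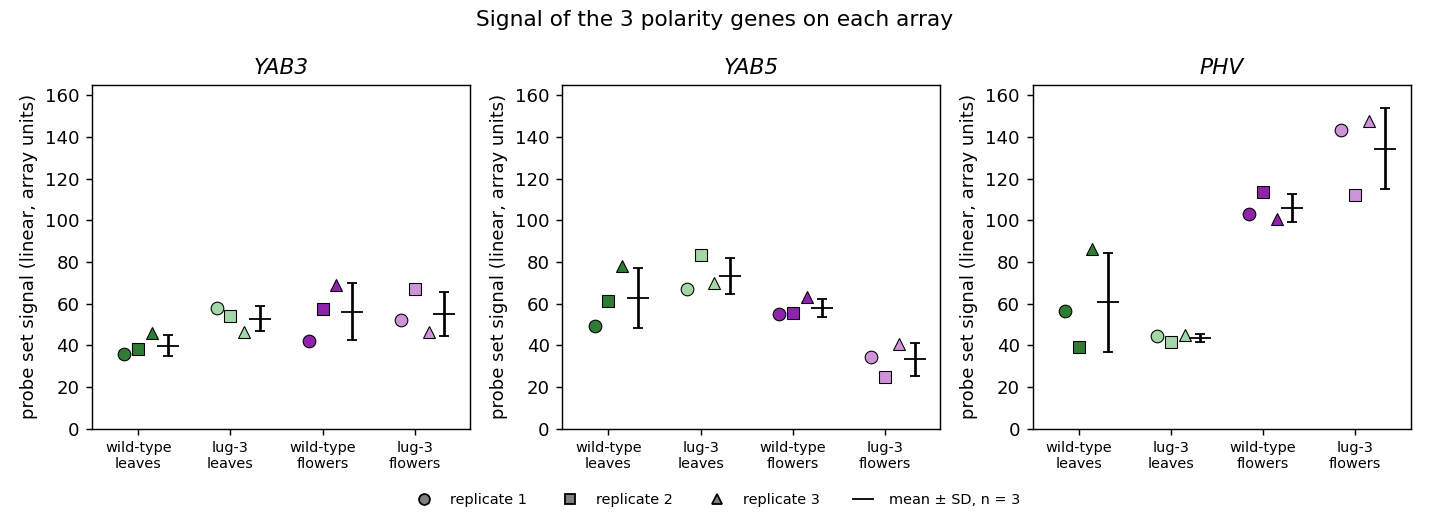
Probe set signal of YAB3, YAB5 and PHV (linear scale, vertical axis) on each of the 12 arrays, by group, with a symbol for each replicate number and the mean ± SD of 3 arrays beside each group. YAB5 is lowest on the 3 lug-3 flower arrays (25.0 to 40.6), and PHV is higher on all flower arrays (101 to 148) than on all leaf arrays (39.2 to 86.2).

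The genes differed in which part of the design their variation followed. On the log2(signal + 8) scale, on which all changes below are given, the difference between tissues made up 80.1% of the variation of PHV over the 12 arrays, 42.6% of that of YAB5 and 20.9% of that of YAB3. The share that fell on the lug-3 change being unequal in the tissues was 29.7% for YAB5, 13.4% for YAB3 and 7.11% for PHV. For YAB3 54.6% lay between arrays of the same group, against 19.4% for YAB5 and 12.8% for PHV. The spread within groups was close to that of other probe sets: the residual SD was 0.22 for YAB3, 0.22 for YAB5 and 0.27 for PHV, beside a median of 0.21 over all 17877 probe sets tested. PHV was most uneven in wild-type leaves, where the SD was 39.3% of the mean, and most even in lug-3 leaves, where it was 4.34%.

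In flowers YAB5 fell in lug-3, the abaxial gene going from 57.9 ± 4.48 (SD, n = 3) in wild type to 33.4 ± 7.88. YAB3, the other abaxial YABBY gene, had 56.2 ± 13.5 and 55.0 ± 10.6, and the adaxial gene PHV had 106 ± 6.74 in wild type and 134 ± 19.5 in lug-3. The change of YAB5 was -0.69 (SE 0.17, 95% interval -1.07 to -0.31, adjusted p = 0.0248), which is 1.61-fold on this scale. For YAB3 the change was -0.02 (95% interval -0.40 to 0.37, adjusted p = 0.968). For PHV it was 0.32 (95% interval -0.13 to 0.76, adjusted p = 0.374). The test called 1 of the 3 genes, a fall, beside 12% of all probe sets tested in either direction, 6.75% with a fall, and a median change of 0.05 over them. Non-overlapping arrays with lug-3 lower, as for YAB5, occurred in 16.3% of the probe sets tested.

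The call of YAB5 in flowers was lost in most fits with 1 flower array left out, while the direction of the change was kept. Over all probe sets tested these fits called 1151 to 1872, against 2150 with all arrays. The change of YAB5 stayed negative when each of the 6 flower arrays in turn was left out (-0.81 to -0.53). It kept its call in 1 of these 6 fits, that without lug-3 flowers 3 (adjusted p = 0.0184). Without any of the other 5 arrays the adjusted p was between 0.0602 and 0.106, the highest without lug-3 flowers 2, on which YAB5 was lowest. With all arrays kept or with the 3 of highest GAPDH ratio dropped together, it passed the threshold in all 12 other settings tried (-0.81 to -0.47, adjusted p from 0.00147 to 0.0350).

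Markers of floral cell types also changed between the genotypes in flowers. In lug-3 flowers all 4 tested pollen markers and all 3 tested tapetum markers fell. Of the 3 tested carpel and ovule markers 2 fell and 1 rose. Over all probe sets tested 6.75% fell and 5.27% rose. The lists hold 12 pollen, 13 tapetum and 12 carpel and ovule markers, and the rest were not tested. The summed signal of the pollen markers was 130 to 215 in lug-3 flowers against 483 to 642 in wild type and that of the tapetum markers 479 to 648 against 1337 to 2064. The carpel and ovule markers summed to 119 to 134 against 357 to 489, with BAN making up the difference, and did not all move one way. BAN, a gene of the seed coat, fell from 294.8 ± 62.1 to 4.80 ± 2.76 (-4.56, adjusted p = 1.52e-07), the YABBY gene INO also fell, and SPT, a carpel gene, rose from 53.7 ± 6.14 to 83.1 ± 5.51 (0.57, adjusted p = 0.0124). The 3 named petal markers summed to 133 to 203 in lug-3 flowers and 284 to 427 in wild type, with 1 of the 2 tested falling. No marker was listed at 0 on any array, and 1 tapetum, 1 carpel and ovule and 1 petal marker stayed at or under the filter level on every lug-3 flower array. The part of these markers in the fall of YAB5 was not tested.

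In leaves none of the 3 genes passed the test. YAB3 had 39.9 ± 5.21 in wild type and 52.7 ± 5.95 in lug-3, a change of 0.34 (95% interval -0.04 to 0.73, adjusted p = 0.184). YAB5 had 62.9 ± 14.4 and 73.3 ± 8.66, a change of 0.21 (-0.17 to 0.59, adjusted p = 0.423). PHV had 60.6 ± 23.8 and 43.6 ± 1.89, a change of -0.35 (-0.80 to 0.10, adjusted p = 0.248). By limma the count was 0 of 3, and 0 of 3 had an unadjusted p under 0.05, beside 22.3% of all probe sets called and a median change of -0.01. YAB3 was the gene whose leaf arrays did not overlap between the genotypes, with lug-3 higher, as in 16.9% of the probe sets tested.

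The leaf value of PHV turned on single wild-type arrays. Without wild-type leaves 2, on which PHV was lowest, the change was -0.59 (adjusted p = 0.0367), past the threshold, and without wild-type leaves 3, on which it was highest, it was -0.09 (adjusted p = 0.739). The leaf value of YAB5 was also uneven across arrays. It was 0.07 without wild-type leaves 1, 0.36 without wild-type leaves 3 and 0.13 without lug-3 leaves 2, with no call in any of these fits. In wild-type leaves the arrays with the higher GAPDH ratio also had the higher YAB5 and YAB3 signals, the ratio being 1.71, 2.83 and 3.44 where YAB5 was 49.4, 61.2 and 78.0. YAB5 also followed the order of the ratio in lug-3 leaves, with ratios of 1.47, 1.68 and 1.58 where YAB5 was 67.1, 83.2 and 69.7. The same held in wild-type flowers, with ratios of 1.63, 1.78 and 2.07 where YAB5 was 54.9, 55.6 and 63.0. In lug-3 flowers the order was not the same, with ratios of 1.65, 2.02 and 3.10 where YAB5 was 34.5, 25.0 and 40.6. Over all arrays the slope of YAB5 was 0.46 (SE 0.16) for each doubling of the ratio in the fit with group means, which did not pass the threshold (limma unadjusted p = 0.0155, adjusted p = 0.198). Every wild-type leaf array had a higher ratio than every lug-3 leaf array, so RNA quality and genotype cannot be fully told apart in the leaf comparisons. With the ratio as a covariate the leaf change was 0.54 for YAB5 (adjusted p = 0.0622). It was -0.21 for PHV (adjusted p = 0.636) and 0.43 for YAB3 (adjusted p = 0.236). Dropping the 3 arrays with the highest GAPDH ratio left wild-type leaves 1 as the single wild-type leaf array, assumed to vary like the other groups. The leaf change of YAB5 was then 0.50.

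**Figure D2:**
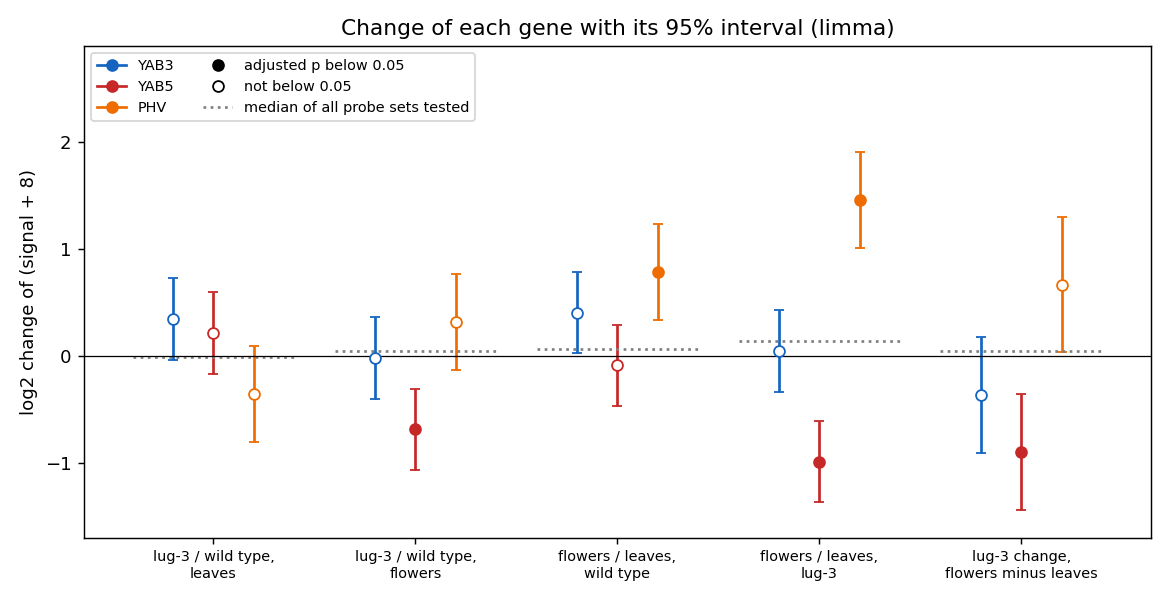
Log2 change of (signal + 8) with its 95% interval for YAB3, YAB5 and PHV in 5 comparisons, each as the first group over the second, with filled points for an adjusted p below 0.05 and dotted lines at the median of all probe sets tested. YAB5 lies below 0 in lug-3 flowers (-0.69) and PHV above 0 in both comparisons of flowers with leaves (0.79 and 1.46), while in leaves the 95% intervals for lug-3 against wild type include 0 for all 3 genes.

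The lug-3 change of YAB5 differed between the tissues. The change in flowers minus that in leaves was -0.90 for YAB5 (SE 0.25, 95% interval -1.44 to -0.36, adjusted p = 0.0222). For PHV the same difference had the opposite sign, 0.67 (SE 0.29, adjusted p = 0.119), and for YAB3 it was -0.36 (-0.90 to 0.18, adjusted p = 0.320), neither passing the threshold. Such a difference was called in 23% of all probe sets tested, with 11.5% in each direction and a median of 0.05. The call of YAB5 was lost without lug-3 leaves 2 (-0.81, adjusted p = 0.0560) and without lug-3 flowers 2 (-0.75, adjusted p = 0.0528), and that of PHV was gained without wild-type leaves 2 (0.91, adjusted p = 0.0200). Leaves and flowers also differed in growth stage, so tissue and stage cannot be told apart in this or in the following comparisons.

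Between tissues PHV was higher in flowers than in leaves in both genotypes. In wild type the change was 0.79 (SE 0.21, 95% interval 0.34 to 1.24, adjusted p = 0.00571), and in lug-3 it was 1.46 (1.01 to 1.90, adjusted p = 0.000102). YAB5 was lower in flowers than in leaves in lug-3, by a change of -0.99 (SE 0.17, 95% interval -1.37 to -0.61, adjusted p = 0.000549), and in wild type its change was -0.09 (-0.47 to 0.29, adjusted p = 0.685). YAB3 did not pass the test in wild type (0.41, 95% interval 0.02 to 0.79, adjusted p = 0.0639) or in lug-3 (0.04, -0.34 to 0.43, adjusted p = 0.849).

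Calls between tissues were common. In wild type 1 of 3 genes was called, higher in flowers, beside 59.2% of all probe sets, 33% called higher and 26.2% called lower. In lug-3 2 of 3 were called, 1 each way, beside 51.1% of all probe sets, 31.7% called higher and 19.4% called lower. Arrays that did not overlap, with flowers higher as for PHV, occurred in 35.7% of the probe sets in wild type and 37.5% in lug-3, and with flowers lower, as for YAB5 in lug-3, in 23.6%. The median change of all probe sets tested was 0.06 for wild type and 0.14 for lug-3. It moved by -0.15 in both with quantile normalization, and by -0.30 in wild type and -0.28 in lug-3 with median centring of each array. The 5897 higher and 4685 lower calls in wild type became 4121 and 7228 with median centring, and the 5672 and 3467 in lug-3 became 3362 and 5654. PHV in wild type was 0.49 (adjusted p = 0.0454) with median centring, and its 2 tissue calls and the tissue call of YAB5 in lug-3 were kept under each setting and with each array left out. YAB3 in wild type gained a call without wild-type flowers 1 (0.57, adjusted p = 0.0151), and its value was 0.12 with quantile normalization and 0.11 with median centring. YAB5 in wild type was -0.32 (adjusted p = 0.106) with quantile normalization and -0.39 (adjusted p = 0.0603) with median centring.

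By level, the order of the groups was different for each gene. For YAB3 the mean fell from wild-type flowers (56.2) over lug-3 flowers (55.0) and lug-3 leaves (52.7) to wild-type leaves (39.9), and neighbours in that order overlapped except the last pair. For YAB5 the order was lug-3 leaves (73.3), wild-type leaves (62.9), wild-type flowers (57.9) and lug-3 flowers (33.4), of which the last pair of neighbours did not overlap. For PHV it was lug-3 flowers (134), wild-type flowers (106), wild-type leaves (60.6) and lug-3 leaves (43.6), with no overlap at the step from flowers to leaves.

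Whether the 3 genes changed unequally in lug-3 can be read within each array, where the scaling of the array cancels in the difference between 2 genes, apart from the pseudocount of 8. Such a difference shows unequal change and not which gene changed. How often such differences lie apart between the genotypes for other pairs of genes was not computed. For single probe sets, arrays without overlap occurred in 16.9% (lug-3 higher) and 18.6% (lug-3 lower) in leaves. In flowers these shares were 20.4% and 16.3%. The difference of YAB5 and PHV in flowers was -0.82, -0.93 and -0.62 in wild type and -1.83, -1.87 and -1.68 in lug-3. It was thus lower on every lug-3 flower array, by 1.00 on average. The difference of YAB3 and YAB5 in flowers was -0.33, 0.04 and 0.12 in wild type and 0.50, 1.18 and 0.16 in lug-3. Here the groups were apart by a small gap, and the mean difference was 0.67 higher in lug-3. In leaves the difference of YAB3 and PHV was -0.56, -0.03 and -0.81 in wild type and 0.33, 0.32 and 0.04 in lug-3, higher by 0.70 with no overlap.

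Each of these 3 differences had a two-sided exact permutation p of 0.1, the smallest that 3 arrays against 3 allow, and 0.2 after Benjamini-Hochberg adjustment over the 6 differences computed. For the remaining 3 the groups overlapped: YAB5 and PHV in leaves (0.56, exact permutation p = 0.2), YAB3 and YAB5 in leaves (0.13, exact permutation p = 0.4) and YAB3 and PHV in flowers (-0.33, exact permutation p = 0.4). No difference changed sign when an array was left out or the pseudocount was 1 or 32.

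**Figure D3:**
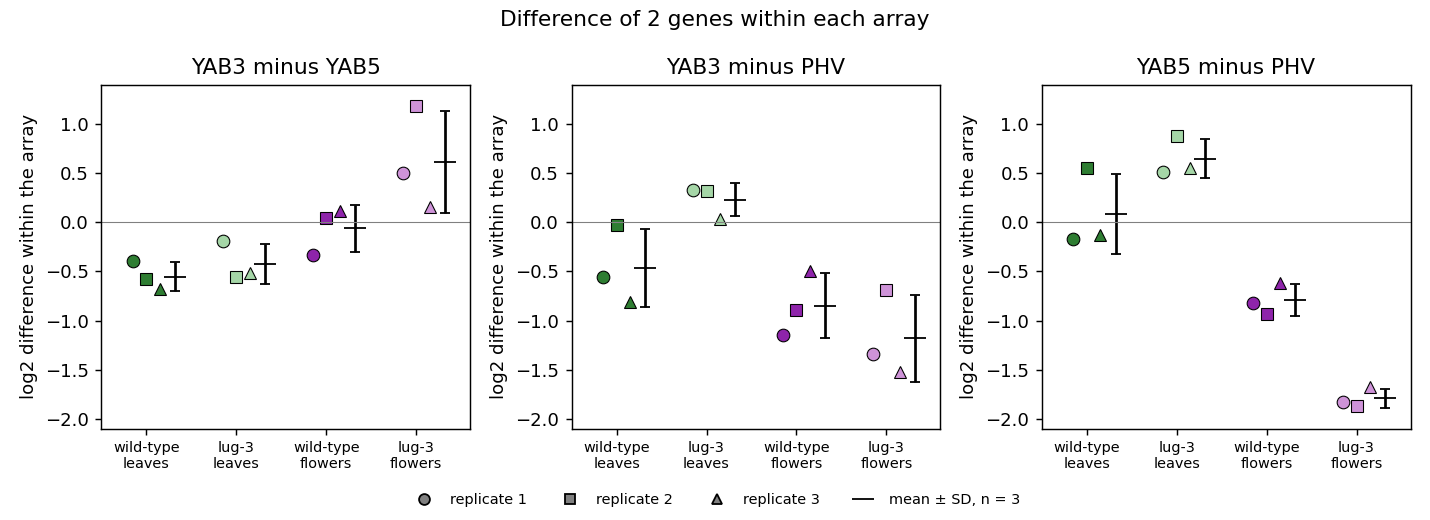
Difference of the log2(signal + 8) values of 2 genes within each array (vertical axis), for the 3 pairs of genes, by group, with a symbol for each replicate number and the mean ± SD of 3 arrays. YAB5 minus PHV is lowest in lug-3 flowers (-1.87 to -1.68), below all wild-type flower arrays (-0.93 to -0.62).

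Of the other genes of organ polarity, LUG partners, organ growth and the meristem on 7 fixed lists, 57 besides YAB3, YAB5 and PHV, 7 had a named probe set and 5 passed the filter: INO, AGO7, SEU, SE and JAG. FIL, the other HD-ZIP III genes, the KANADI genes and AS1 and AS2 are not analysed here. In lug-3 flowers 1 of the 5 rose, 1 fell and 3 did not pass, with a median change of 0.06. In lug-3 leaves 1 of the 5 fell and 4 did not pass, with a median change of -0.12. Over all probe sets tested 5.27% rose and 6.75% fell in flowers, and 11% fell in leaves.

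INO, the YABBY gene of the outer integument of the ovule, fell in lug-3 flowers. It is also on the list of carpel and ovule markers, of which BAN fell (-4.56) and SPT rose (0.57) in lug-3 flowers. The part of ovule tissue in the fall of INO was not tested. The INO signals were 71.2, 61.8 and 75.4 in wild-type flowers and 41.6, 37.3 and 39.2 in lug-3 flowers. The groups did not overlap, with lug-3 lower, as in 16.3% of the probe sets tested. The change was -0.71 (SE 0.17, adjusted p = 0.0187), and it was -0.69, -0.65 and -0.67 without wild-type flowers 1, wild-type flowers 3 and lug-3 flowers 2, where the call was lost (adjusted p up to 0.0710). In leaves INO had 31.0 ± 7.44 in wild type and 25.9 ± 6.12 in lug-3 (-0.20, adjusted p = 0.431). Of the 3 YABBY genes with a named probe set, 2 were called lower in lug-3 flowers, YAB5 and INO, beside 6.75% of all probe sets tested. Both calls were lost in some fits with 1 array left out, as given for each gene.

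AGO7, which encodes the Argonaute protein that acts with miR390 to make small RNAs against the abaxial auxin response factor genes ETT and ARF4, rose in lug-3 flowers. The AGO7 signals were 14.2, 16.4 and 19.8 in wild-type flowers and 56.8, 49.3 and 56.1 in lug-3 flowers. The groups did not overlap, with lug-3 higher, as in 20.4% of the probe sets tested. In leaves AGO7 had 39.7 ± 11.1 in wild type and 37.8 ± 12.6 in lug-3. The change in flowers was 1.33 (SE 0.21, adjusted p = 0.00148), called without each flower array in turn (1.25 to 1.41). Its size depended on the pseudocount, being 1.64 with 1 and 0.82 with 32, both called. The wild-type flower signals lay near the filter level of 16.4. The leaf change was -0.06 (adjusted p = 0.862). The difference of the AGO7 change between the tissues was 1.39 (adjusted p = 0.00637). It missed the threshold when the GAPDH ratio was a covariate (1.04, adjusted p = 0.0661) and when the 3 arrays with the highest GAPDH ratio were dropped (0.97, adjusted p = 0.0751).

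SEU, which encodes SEUSS, fell in lug-3 leaves. Its signals were 153.5, 149 and 155 in wild-type leaves and 122.7, 119 and 117 in lug-3 leaves. The groups did not overlap, with lug-3 lower, as in 18.6% of the probe sets tested. The change was -0.33 (SE 0.09, adjusted p = 0.0270). Leaving out wild-type leaves 3, or either of lug-3 leaves 2 and 3, ended the call (adjusted p up to 0.0843), with the change between -0.35 and -0.31 over all 6 arrays left out in turn. The call was also lost with quantile normalization (-0.26), in a fit of the leaf groups alone (-0.33), with the GAPDH ratio as covariate (-0.36) and when the 3 arrays with the highest ratio were dropped (-0.34), at an adjusted p up to 0.116. Of the 4 photosynthesis markers LHCB4.2 was called higher in lug-3 leaves (0.65, adjusted p = 0.0296) and the other 3 did not pass. In flowers SEU had 134 ± 3.13 and 140 ± 5.92 (0.06, adjusted p = 0.754).

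The gene SE, which encodes SERRATE, a zinc finger protein of microRNA processing that acts on the miR165 and miR166 precursors, did not pass in leaves (56.2 ± 5.85 and 50.9 ± 4.88, change -0.12, adjusted p = 0.470) or in flowers (63.6 ± 1.90 and 60.2 ± 2.87, change -0.07, adjusted p = 0.758). JAG, a zinc finger gene that promotes blade growth, had low signals, from 2.91 to 35.6 over all arrays. It passed the filter through the 3 lug-3 flower arrays (17.0, 24.0 and 35.6), where it was highest, and 2 other arrays, while all wild-type leaf arrays (2.91, 10.1 and 12.8) lay below the filter level. Its change was 0.39 in leaves (adjusted p = 0.316) and 0.47 in flowers (adjusted p = 0.290), neither passing the threshold. The leaf value rested on wild-type leaves 1, at a signal of 2.91. It was 0.11 (adjusted p = 0.778) without that array, 0.94 (adjusted p = 0.0354) when the 3 arrays with the highest GAPDH ratio were dropped, which leaves that array alone for wild type, and 1.06 (adjusted p = 0.00187) with the GAPDH ratio as covariate.

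**Figure D4:**
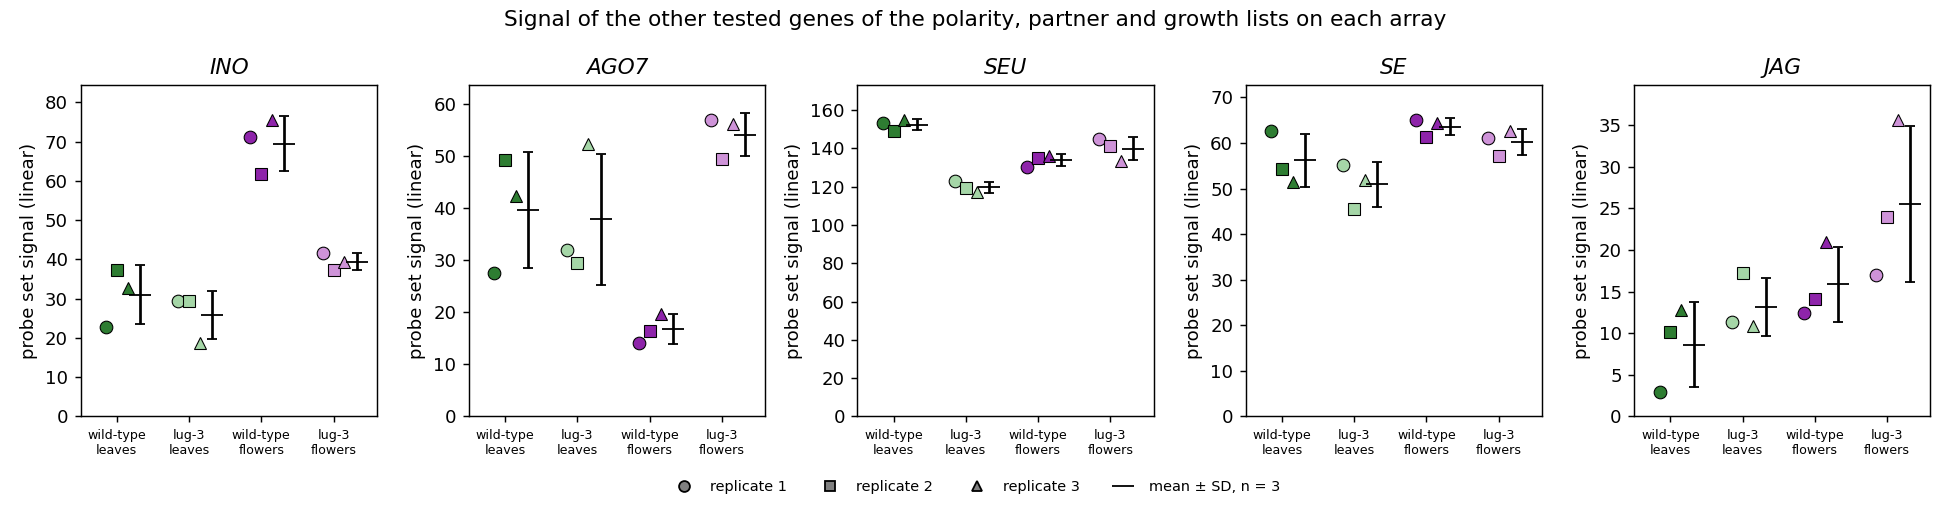
Probe set signal (linear scale, vertical axis) of INO, AGO7, SEU, SE and JAG on each array, by group, each panel with its own axis from 0, a symbol for each replicate number and the mean ± SD of 3 arrays. AGO7 is at 49.3 to 56.8 in lug-3 flowers and 14.2 to 19.8 in wild-type flowers, and INO is lower in lug-3 flowers (37.3 to 41.6) than in wild-type flowers (61.8 to 75.4).

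Genes with the pattern most like each of the 3 were ranked by Pearson's r over the 12 arrays on the log2 scale among tested probe sets with 1 gene. These r describe 12 arrays that share tissue, genotype and RNA quality, and carry no test. Genes picked by r resemble the chosen gene through the choice itself, so the shared orders of means below are only a description. For YAB3 the highest were AT3G19630 (0.92), AT1G06560 (0.88), AT5G57100 (0.81), AT3G56870 (0.81) and AT5G20130 (0.80). AT3G19630, like YAB3, was lowest in wild-type leaves (54.3 ± 3.37, against 71.3 ± 6.08 in lug-3 leaves). The lowest for YAB3 were AT1G67210 (-0.85) and MMT (-0.83), the methionine S-methyltransferase gene.

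For YAB5 the highest were AT1G44030 (0.93), AT1G54120 (0.92), MAP1C (0.91), a methionine aminopeptidase gene, AT3G16850 (0.91) and AT2G37830 (0.90). All 5 had their lowest mean in lug-3 flowers, as YAB5 did, for instance AT3G16850 with 84.1 ± 8.61 there and 116 ± 6.74 in wild-type flowers. The lowest for YAB5 were AT3G10300 (-0.94) and AT4G36010 (-0.93), the latter at 270 ± 82.9 in lug-3 flowers and 97.0 ± 12.9 in wild-type flowers.

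For PHV the highest were AT3G03170 (0.98), AT5G19070 (0.98), AT4G00270 (0.97), AT3G05220 (0.97) and the bZIP transcription factor gene bZIP42 (0.96). All 5 shared with PHV the order of means from lug-3 leaves, the lowest, over wild-type leaves and wild-type flowers to lug-3 flowers. AT5G19070, for instance, had 63.3 ± 3.20, 81.6 ± 18.1, 117 ± 5.11 and 135 ± 7.15 in that order. The lowest for PHV were PMM (-0.96), the phosphomannomutase gene, and AT5G19750 (-0.96). Among the 3 genes themselves r was -0.64 for YAB5 and PHV, 0.31 for YAB3 and PHV and -0.19 for YAB3 and YAB5.

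**Figure D5:**
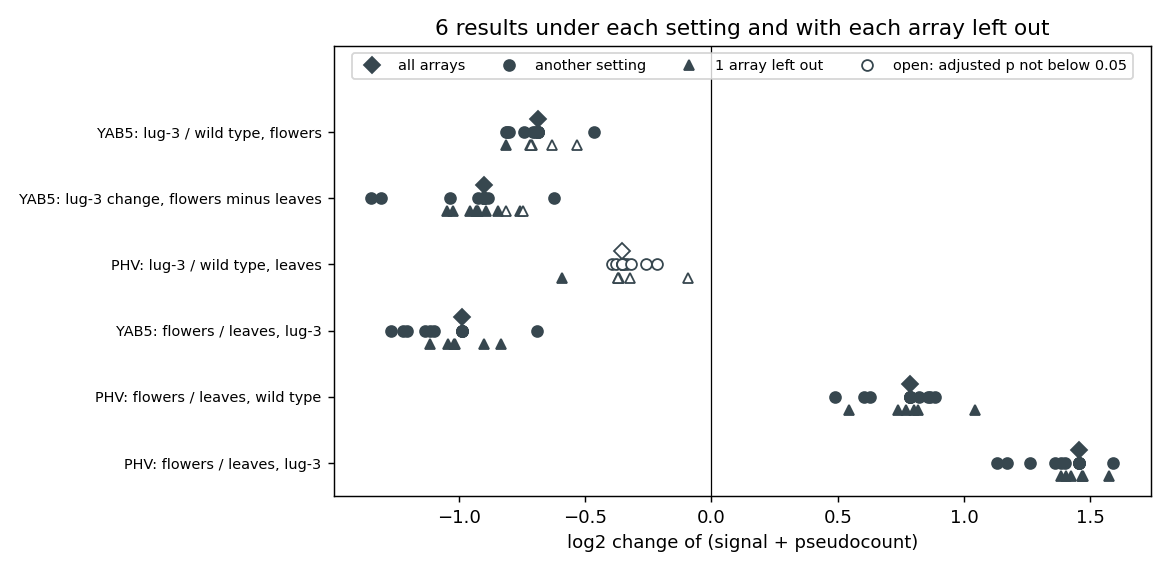
Log2 change of (signal + pseudocount) on the horizontal axis for 6 results, with all arrays (diamonds), under each other setting (circles) and with 1 array left out (triangles), where open symbols mark an adjusted p not below 0.05. The fall of YAB5 in flowers stays negative throughout and is open in 5 of 6 fits with an array left out, and the tissue differences of PHV and of YAB5 in lug-3 stay filled.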

How the data were processed

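The deposited values are linear intensity per probe set, 1 array per sample. Per the submitters' processing notes, MAS5 and GCOS were used (no version given). The authors' scaling shows in the 2% trimmed mean, 100.0 on every array. GEO's platform annotation named 13513 probe sets with 1 gene, 503 with several and left 8730 unnamed here. Symbols were updated through Entrez IDs to a RefSeq gene table (TAIR10.1), and no coordinates or sequences are printed.

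Values were used as log2(signal + 8), 8 being the rounded 20th percentile, and understate changes at low signal. Leaving out 64 controls, 17877 of 22746 probe sets were tested, those with a signal over 16.4 (30th percentile of all values) on 3 arrays or more. Limma 3.58.1 in R 4.3.3 fitted 4 group means to all 12 arrays (8 residual and 3.79 prior degrees of freedom). Adjusted p-values are Benjamini-Hochberg over all probe sets tested, called below 0.05. The fit was tested on simulated data for lug-3 against wild type in flowers. Within-array differences used exact permutation tests. The genes, lists and tests were chosen with earlier results of these data known. The rule for names took the 3 genes, every tested gene of the 7 lists, and for each gene the 5 highest and 2 lowest r. Arrays of the same group had a Spearman's rho of 0.954 to 0.986. Alternatives covered pseudocount, filter, scaling, arrays fitted, array weights, prior, replicate block, RNA quality and each array left out. The number of arrays limits the precision.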

Additional observations from a re-analysis of the deposited data

Results flagged for a closer look

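The lug-3 change of YAB5 in flowers minus that in leaves was -0.90 on the log2 scale. It is listed here because the interaction term of the limma fit passed the threshold (adjusted p = 0.0222): YAB5 was lower on all 3 lug-3 flower arrays than on all 3 wild-type flower arrays, and in leaves its change was 0.21 with overlapping arrays. The range with each of the 12 arrays left out was -1.05 to -0.75.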

How the results depend on the processing

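For YAB3, YAB5 and PHV in 5 comparisons, 170 of 177 values under settings other than leaving out an array kept their direction and their side of the threshold, and the other 7 changed sign without a call. For YAB3 in lug-3, flowers against leaves, these were -0.22 with quantile normalization, -0.24 with median centring and -0.013 with the GAPDH covariate. For YAB3 in flowers, lug-3 against wild type, they were 0.054 with array weights and 0.085 without the 3 arrays of highest GAPDH ratio. For YAB5 in wild type, flowers against leaves, they were 0.14 with the covariate and 0.20 without those arrays. For the tissue comparisons the change of sign with scaling goes with the shift of the median given above, and for the others the cause was not tested. With 1 array left out, 91 of 108 values kept both. The ranges for lug-3 against wild type were 0.28 to 0.43 (YAB3), 0.07 to 0.36 (YAB5) and -0.59 to -0.095 (PHV) in leaves, and -0.19 to 0.13, -0.81 to -0.53 and 0.25 to 0.43 in flowers. Those for flowers against leaves were 0.26 to 0.57, -0.23 to 0.061 and 0.55 to 1.04 in wild type, and -0.085 to 0.15, -1.11 to -0.83 and 1.39 to 1.57 in lug-3. Those for the difference between tissues were -0.53 to -0.22, -1.05 to -0.75 and 0.41 to 0.91. These fits have fewer samples. Of the other genes, AGO7 in leaves turned to 0.19 with the covariate, 0.34 without the 3 arrays and -0.28 to 0.083 with 1 array left out, and INO in leaves to 0.12 without the 3 arrays. The number of probe sets called ran from 1950 (groups compared alone) to 4388 (trend and robust prior) in leaves, against 3993, and from 1620 (pseudocount 1) to 5059 (array weights) in flowers, against 2150. With 1 array left out it was 2581 to 4014 in leaves and 1151 to 1872 in flowers, over 1.5 times below without lug-3 leaves 2 (2600) or 3 (2581), wild-type flowers 1 (1151) or 2 (1199), or lug-3 flowers 1 (1312) or 2 (1231). The replicate numbers were not shown to pair the samples: correlations of same-numbered deviations ran from -0.11 to 0.18, and with the replicate block every call of the 3 genes was kept, YAB5 in flowers at -0.69 (adjusted p = 0.0252), with 2006 calls in flowers and 3888 in leaves.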
